A study of Saccharomyces cerevisiae with 22 samples.

Results

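Budding yeast treated with rapamycin stops growing and rebuilds its mRNA population over hours. Described here are 44 mRNAs that stood low after 1 h of rapamycin and higher after 3 h in WT cells. They were selected on the WT RNA-Seq counts. An mRNA was taken if it had 100 or more counts at 3 h, if its log2(CPM + 1) at 3 h lay at least 1 above the mean of the 2 growing libraries, and if its value at 1 h lay at most 0.4 above that mean. CPM are the counts of a gene divided by all counts of the library and scaled to a common library total. The members are 44 of 6696 genes in the files, and 5559 genes had 100 or more counts at 3 h. Rapamycin-treated libraries of WT, rny1Δ atg2Δ and rny1Δ cells (0.2 µM in YPD, a rich glucose medium) were set against libraries of cells growing in YPD, and the labels name the background X2180-1a. The study's strain list gives X2180-1a as a MATa strain and X2180-1B as the background of the mutants. WT cells gave 5 RNA-Seq and 5 ribosome footprint libraries, in each assay 2 of growing cells and 1 each at 1, 2 and 3 h. Whether the times came from separate cultures is not stated. The strains labelled rny1Δ atg2Δ and rny1Δ gave 12 RNA-Seq libraries from isolated vacuoles and from total lysates, with 2 libraries per strain and fraction after 3 h of rapamycin and 1 of growing cells. Their alleles are rny1Δ::natNT2 and atg2Δ::kanMX6. Rny1 is a vacuolar ribonuclease and Atg2 is needed to form autophagosomes. Thus both mutant strains lack the vacuolar ribonuclease by label, and vacuoles of WT cells were not analysed here.

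Library totals ranged from 535462 to 22097523 counts. The lowest was 1 vacuole library of rapamycin-treated rny1Δ atg2Δ cells (replicate 2), where 3 counts equal 5.60 CPM, and the next lowest of the 12 had 9156333. ATG2 had 0 to 79 counts in the 6 libraries labelled rny1Δ atg2Δ and 851 to 1448 in the 6 labelled rny1Δ. RNY1 had 9 to 439 and 247 to 418 counts in these 2 sets, against 66 to 1119 in WT RNA-Seq, so its counts do not show the deletion and strains are named here by their labels. In all 22 libraries the a-cell genes STE2, BAR1, MFA1, MFA2, AGA2 and ASG7 summed to 1.84 to 48.2 CPM, whereas the alpha-cell genes STE3, MF(ALPHA)1, MF(ALPHA)2 and SAG1 summed to 2109 to 6587 CPM. All libraries, WT included, thus carried alpha-type mRNAs, whereas the WT strain is listed as MATa.

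TORC1 is the kinase complex through which yeast couples nutrients to growth, and rapamycin inhibits it. Ribosome production then falls, autophagy begins, and dividing cells come to rest early in the cell cycle. Genes for DNA replication and for chromosome segregation are transcribed in waves that follow the division cycle. The sulfur pathway assimilates sulfate into methionine and S-adenosylmethionine and is induced when these are short. In bulk libraries such as these, a shift in how many cells are at a given stage of division and a change of RNA per cell cannot be told apart. Of the 44 members, 17 serve DNA replication, mitosis or cytokinesis and 4 belong to the sulfur pathway. Another 6 serve transcription or splicing, 4 are nuclear genes for mitochondrial proteins, 2 are encoded in mitochondrial DNA, 4 act at the cell surface or in sugar uptake, 2 are meiotic and 5 were not placed. These groups were drawn up after the values were known.

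The WT RNA-Seq values chose the members and are given as a description. Growing WT libraries gave 48.3% and 50.1% of their counts to their 100 most abundant genes, against 40% to 41.1% after rapamycin. With that change the median gene with 100 counts at 3 h lay 0.67, 0.76 and 0.74 above growing cells at 1, 2 and 3 h on the log2 scale. A change of 1 at 3 h is therefore only 0.26 above the median gene, and the ceiling of 0.4 at 1 h is 0.27 below it. Of the 5559 genes, 2037 met the 3 h limit alone and 2137 met the 1 h limit alone. Changes in WT RNA below are relative to the median gene of the same library. On that scale the members had a median of -0.44 at 1 h (range -1.39 to -0.28), 0.08 at 2 h (-0.58 to 0.77) and 0.37 at 3 h (0.27 to 1.37). At 2 h 25 of the 44 were above the median gene. In CPM, 29 members climbed in the order 1, 2 and 3 h, while 11 were higher at 2 h than at 3 h. For comparison, the 1567 genes up by 1 or more at both 1 h and 3 h had medians of 0.95, 0.80 and 0.86. The 38 genes up at 1 h but not at 3 h had medians of 0.56, -0.21 and -0.53. With each library scaled by TMM, which corrects for such shifts in composition, 13 genes met the same limits and only SPS4 and UPS2 of the 44 were among them.

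**Figure D1:**
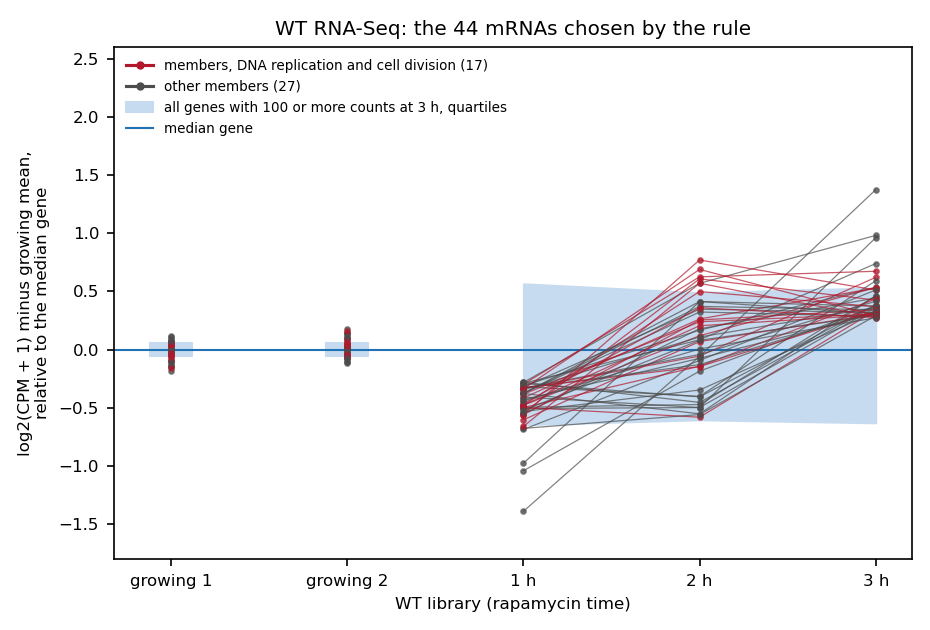
Log2(CPM + 1) minus the growing mean, relative to the median gene, in each WT RNA-Seq library for the 44 members (lines join 1, 2 and 3 h; red, 17 members of DNA replication and cell division; grey, 27 others). The blue band gives the quartiles of all 5559 genes with 100 or more counts at 3 h. All 44 lie below the median gene at 1 h and above it at 3 h, as the selection requires, and most lie inside or near the band at every time.

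SPS4, a gene named for its induction in sporulation (chromosome XV, 901858 to 902874 in sacCer3, the build of the files), showed the widest swing. It had 2.05 and 2.41 CPM in growing WT cells, 0.965 at 1 h, 4.25 at 2 h and 12.9 at 3 h, on 146 counts at 3 h. UPS2, which acts in lipid transport between mitochondrial membranes (chromosome XII, 499578 to 500270), had 9.11 and 8.38 CPM in growing cells, then 11.8, 23.5 and 31.02 CPM. In CPM its level climbed at each time, whereas that of HXT4, a hexose transporter (chromosome VIII, 287081 to 288811), changed little until the last time. Relative to the median gene, UPS2 stood at -0.28, 0.57 and 0.98 at 1, 2 and 3 h, and HXT4 at -0.51, -0.50 and 0.96. HXT4 had 74.9 and 103 CPM in growing cells, 99.02 at 1 h, 106 at 2 h and 287.7 at 3 h. HXT4 has close relatives in the genome, and how reads shared by such copies were counted in the WT libraries is not given in the sources used here. In the mutant libraries HTSeq set aside reads without a unique alignment. The change at 3 h relative to the median gene was 1.37, 0.98 and 0.96 for SPS4, UPS2 and HXT4, and no other member passed 0.74, the value of SNU66, a splicing factor of the tri-snRNP.

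Most replication and mitosis members were already high at 2 h. POL1, the catalytic subunit of DNA polymerase alpha (chromosome XIV, 430087 to 434493), had 63.2 and 68.8 CPM in growing cells, 72.3 at 1 h, 172 at 2 h and 149 at 3 h. MCD1, the cleavable subunit of cohesin (chromosome IV, 444683 to 446383), had 19.6 and 21.1, then 22.1, 60.6 and 49.7 CPM. Both peaked at 2 h, as did TOP2 (topoisomerase II), CBF2 (a centromere-binding protein), FIN1 (a spindle protein) and CSM1 (a kinetochore cross-linker of meiosis and the nucleolus). Relative to the median gene these 6 stood at 0.61, 0.77, 0.50, 0.57, 0.69 and 0.36 at 2 h. The other members of this kind, ORC1 (origin recognition), CDC45 (replicative helicase), RAD9 (DNA damage checkpoint), MIF2 and NUF2 (kinetochore), CDC5 (polo kinase) and BFA1 (mitotic exit checkpoint), were highest at 3 h. So were BUD4 (bud site choice), HOF1 (cytokinesis), SCW11 (a cell wall glucanase of cell separation) and PCL9 (a cyclin of the Pho85 kinase). The 17 cell division members had a median of -0.48 at 1 h, 0.25 at 2 h and 0.34 at 3 h.

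The sulfur, surface and mitochondrial members differed in their timing. MET2, homoserine acetyltransferase (chromosome XIV, 117349 to 118809), had 18.2 and 23.5 CPM in growing cells, 25.7 at 1 h, 24.1 at 2 h and 48.8 at 3 h. SAM2, one of 2 S-adenosylmethionine synthetases (chromosome IV, 1453310 to 1454464), was low at 1 h and high from 2 h on, with 117 and 131 CPM in growing cells, then 100.3, 280.3 and 257 CPM. MNN4, needed for mannosylphosphate on glycans (chromosome XI, 63930 to 67466), had 16.6 and 21.9 CPM, then 25.2, 24.7 and 42.8 CPM. All 4 cell surface and sugar members (HXT4, MNN4, PRY3 and WSC4) were below the median gene at 2 h, with a median of -0.43, and both mitochondrially encoded members were so too. AI3 and BI3 are reading frames in introns of COX1 and COB in mitochondrial DNA, so their reads cannot be told apart from unspliced RNA of those genes. The mitochondrially encoded genes as a class held 0.382% and 0.430% of counts in growing WT RNA-Seq, 0.617% at 1 h, 0.708% at 2 h and 1.08% at 3 h.

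Several genes lay just beyond the limits. MET3 (ATP sulfurylase), CSM1 and CBF2 were the lowest members at 3 h, with unadjusted log2 changes of 1.01, 1.01 and 1.02, and JJJ2, YNL276C and ATP6 were the nearest outside with 0.99, 0.99 and 0.97. PRY3 and UPS2 were highest at 1 h among the members, both at 0.39, and PEX19 and PET130 lay outside at 0.40. RED1 had the fewest counts at 3 h, 117, and SEO1 lay outside with 78. There were 21 members within 0.1 of the 3 h limit. The 2 growing libraries differed from each other by 0.18 in log2 units (SD over the 5559 genes), and with only 1 of them as the reference 28 and 31 of the 44 members stayed in the list.

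Members had long coding sequences. The median counted coding length was 569 codons for members and 409 codons for the 5559 genes, and 30 of the 44 had 500 or more codons (68.2%, against 38.2%). This was not particular to the members. In the broader lists of replication and of segregation genes described below, which include some members, 65% and 65.5% were that long. Their median level in growing WT cells was 18.9 CPM, against 29.97 CPM for all. POL1, BUD4, MET5 and TOP2 were the longest, with 1459, 1438, 1433 and 1419 codons. Length was not used in the selection, and its part in the timing was not tested.

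Ribosome footprints were then examined, since they were not used to choose the members, although they came from the same lysates as the RNA-Seq libraries. Footprints are RNA pieces protected by ribosomes, so that their counts follow the ribosomes on each coding sequence. Of the 44 members, 40 had enough footprints to be tested among 5722 genes. No member was called at any time at a log2 change of 1 or more in size and an adjusted p below 0.01 (edgeR's quasi-likelihood test, Benjamini-Hochberg). Over all genes 7.27%, 0% and 0% were called at 1, 2 and 3 h, and at an unadjusted p under 0.05 there were 4, 2 and 1 members against 1505, 1022 and 1077 genes. The fit had 1 library per time and 1 residual degree of freedom.

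The footprints of the members stood in the same order as the RNA. They share the lysates, 1 per time, whose RNA values chose the members, so this order is not independent of the selection. The median log2 change of the 40 members from growing cells was -0.54 at 1 h, 0.02 at 2 h and 0.12 at 3 h, beside medians of 0.05, 0.04 and 0.04 over all genes tested. Footprints were higher at 3 h than at 1 h in 39 of 40 members (97.5%) and in 51.3% of all genes, with a median difference of 0.62 for members and 0.01 for all genes. The exception was a gene already high at 1 h: SNU66 had 0.34 ± 0.39 at 1 h and 0.31 ± 0.39 at 3 h (log2 ± SE). Of the 40, 35 were below the median of all genes at 1 h and 23 were above it at 3 h. Of the genes up in RNA at 1 h but not at 3 h, which were chosen for the opposite order, 1 of 32 had more footprints at 3 h than at 1 h.

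**Figure D2:**
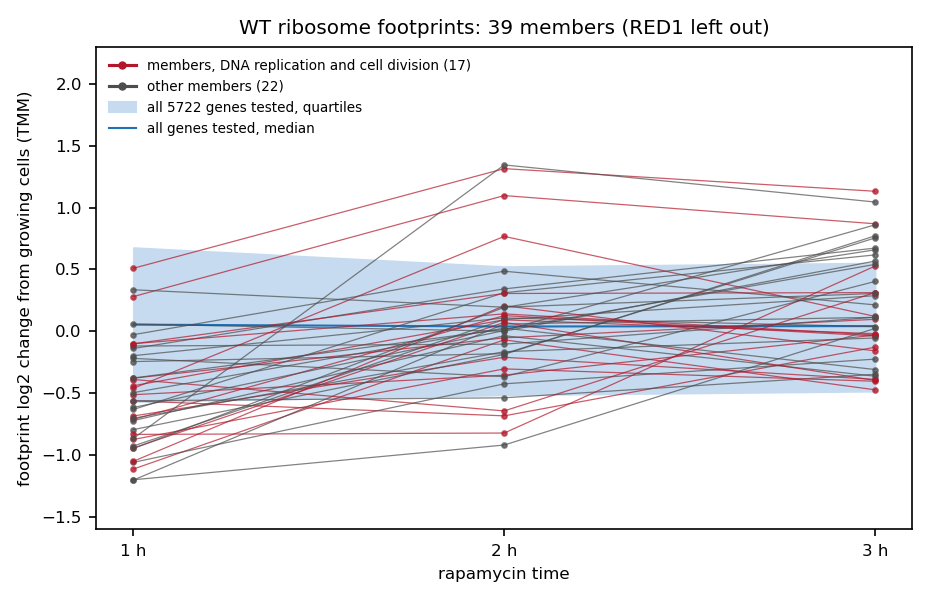
Log2 change of ribosome footprints from growing WT cells at 1, 2 and 3 h for 39 members (red, 17 members of DNA replication and cell division; grey, 22 others), with the median and quartiles of all 5722 genes tested in blue. RED1, which had 0 footprints in growing cells, is left out. Members range from -1.20 to 0.51 at 1 h and from -0.47 to 1.13 at 3 h, and most end inside the band of all genes.

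Single members show how small these shifts were. MET3 had 15.8 and 24.2 footprint CPM (after TMM) in growing cells, 12.9 at 1 h, 19.9 at 2 h and 36.0 at 3 h. Its 3 h value was above both growing libraries, with a log2 change of 0.86 ± 0.41 (adjusted p = 0.29). POL1 had 127 and 101 CPM in growing cells, 54.97 at 1 h, 131 at 2 h and 102 at 3 h. After a dip at 1 h its footprints were back within the range of the growing libraries by 3 h, with a log2 change of -0.16 ± 0.46. CBF2 dipped likewise, with 38.7 and 34.1 CPM in growing cells, then 16.8, 34.7 and 26.2 CPM, between the growing values at 2 h and below both at 3 h. FIN1 had 6.84 and 10.3 CPM, then 11.98, 20.96 and 18.5 CPM, above both growing libraries at all 3 times. Its log2 change was 1.32 ± 0.45 at 2 h and 1.13 ± 0.44 at 3 h. HXT4 had 229 and 401 CPM in growing cells, 266 at 1 h, 278 at 2 h and 532 at 3 h, where it exceeded both growing values. The growing libraries themselves were far apart for HXT4, and its log2 change at 3 h was 0.76 ± 0.54.

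By role group, the median log2 change of footprints at 3 h was 0.53 for the 4 sulfur members, 0.58 for the 4 nuclear-encoded mitochondrial members and 0.53 for the 4 surface and sugar members. Within these groups AEP2 (0.04 ± 0.40) and MNN4 (0.02 ± 0.44) were close to 0, with 3 h values between their growing libraries. The 17 cell division members had a median of -0.03, with 7 fitted changes above 0 and 10 below, and the groups overlapped. The difference between groups was not tested. TOP2 ended at -0.40 ± 0.49, ORC1 at -0.40 ± 0.39 and CDC45 at -0.39 ± 0.41, none past the test. FIN1 and SPS4 had a log2 change of 1 or more at 3 h, SPS4 on 2 and 5 footprints in growing cells and 55 at 3 h. RED1 had 0 footprints in both growing libraries and 8 at 3 h, so that no fold is given, although its fitted value counts as the third of that size. How many reached it turned on the growing library used, with 1 member against growing replicate 2 alone and 7 against replicate 1 alone. AI3, BI3, YLR154W-F and YOR263C had 0 to 3 footprints in each library and were not tested. Since RNA values chose the members, the ratio of footprints to RNA is a description only. For 38 members its log2 change at 3 h had a median of -0.32, against 0.00 for 4986 genes, and ranged from -0.96 in ORC1 to 0.77 in FIN1.

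Mutant cells after the same 3 h of rapamycin gave a second look at these mRNAs in libraries the selection did not use. Against growing cells of the same strain, total RNA of the 43 members measured had a median log2 change of -0.39 in cells labelled rny1Δ atg2Δ and -0.28 in cells labelled rny1Δ, beside -0.01 and -0.02 over all 6328 genes tested. In rny1Δ atg2Δ cells 5 members rose and 10 fell, where 23.6% and 23.6% of all genes were called higher and lower. In rny1Δ cells 5 members rose and 7 fell, where 21.8% and 22.2% of all genes were called. The share of members that rose was 11.6% in each strain, under that of all genes, and the genes up at both 1 h and 3 h in WT, by contrast, had a median of 1.22 in rny1Δ cells, with 851 of 1503 called higher. Strain, library preparation and counting differed together between the WT and the mutant libraries, and their parts cannot be told apart. Scaling differed as well, since the WT values that chose the members were scaled by library total and the mutant changes by TMM. CSM1 had 0 counts in all 12 mutant libraries and 181 in WT RNA at 3 h, so it was not tested there. All values below are on the scale of the 12-library fit and cannot be set beside WT levels. Only 1 growing library per strain and fraction stands behind each change, so its spread is taken from the rapamycin replicates.

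**Figure D3:**
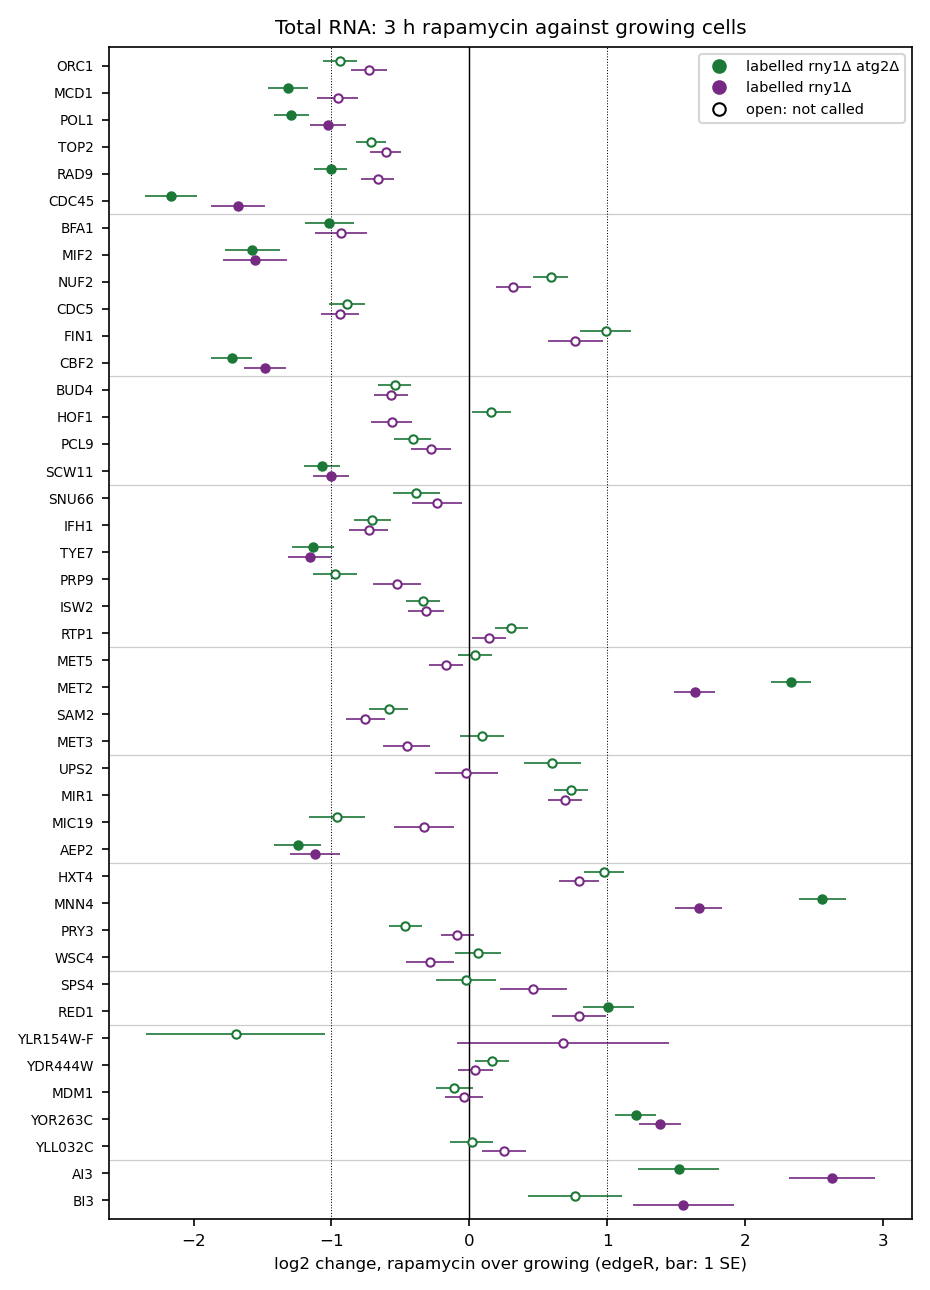
Log2 change of total RNA after 3 h of rapamycin over growing cells for 43 members, with 1 SE, in cells labelled rny1Δ atg2Δ (green, upper point) and rny1Δ (purple, lower point). Grey lines part the role groups in the order replication, segregation, bud and separation, transcription and splicing, sulfur, mitochondrial, surface and sugar, meiosis, unplaced and mitochondrially encoded. Filled points passed the test. POL1, CDC45, MIF2, CBF2, SCW11, TYE7 and AEP2 lie at or beyond -1 in both strains, and MET2, MNN4, AI3 and YOR263C beyond 1 in both.

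The members of DNA replication and mitosis were mostly below growing levels in the mutants after TMM. In WT they were selected on values scaled by library total. Relative to the median gene, the 17 cell division members had a 3 h median of only 0.34 there. CDC45 had 6.03 and 6.52 CPM (after TMM) in rapamycin-treated rny1Δ atg2Δ cells and 27.98 CPM in growing ones. In the strain labelled rny1Δ it had 8.54 and 7.85 CPM after rapamycin and 26.3 CPM in growing cells. It fell in both strains, with log2 changes of -2.16 ± 0.19 (adjusted p = 5.5e-09) and -1.68 ± 0.20 (adjusted p = 3.9e-07). POL1 had 72.8 and 86.2 CPM after rapamycin and 194 CPM in growing rny1Δ atg2Δ cells, and 98.8 and 98.8 CPM after rapamycin and 201 CPM in growing rny1Δ cells. Rapamycin and growing libraries did not overlap, and POL1 fell by 1.29 and 1.03 on the log2 scale. CBF2 fell likewise (-1.73 ± 0.15 in rny1Δ atg2Δ and -1.48 ± 0.15 in rny1Δ), as did MIF2, which links centromeric nucleosomes to the kinetochore (-1.57 ± 0.20 and -1.55 ± 0.23). MCD1, RAD9 and BFA1 passed the test in rny1Δ atg2Δ cells only, with -1.31 ± 0.15, -1.01 ± 0.12 and -1.01 ± 0.18, against -0.95 ± 0.15, -0.67 ± 0.12 and -0.93 ± 0.19 in rny1Δ cells. RAD9 had -0.91, under the limit of size, when treated rny1Δ atg2Δ replicate 1 was left out. The level after rapamycin was not called between the strains for any of the 3, and the difference between their changes was not tested. ORC1, TOP2 and CDC5 lay between -0.94 and -0.61 in both strains, within the limit of 1. FIN1 and NUF2 stood apart on the positive side, with 0.99 ± 0.19 and 0.59 ± 0.12 in rny1Δ atg2Δ cells and 0.77 ± 0.20 and 0.32 ± 0.13 in rny1Δ cells. Of all 16 cell division members measured, 8 fell and 0 rose in rny1Δ atg2Δ cells, where 23.6% of all genes fell and 23.6% rose. In rny1Δ cells 5 fell and 0 rose, where 22.2% of all genes fell and 21.8% rose.

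Broader lists of such genes, drawn up after the members were known, give the setting. Of 42 genes of the replication machinery, 4 of them members, 25 fell and 0 rose in rny1Δ atg2Δ total RNA, with a median of -1.04, and 21 fell and 0 rose in rny1Δ total RNA, with a median of -1.01. Of 59 genes of chromosome segregation and mitosis tested, 14 fell and 6 rose in rny1Δ atg2Δ cells and 12 fell and 3 rose in rny1Δ cells, with medians of -0.27 and -0.47. Over all genes, 23.6% fell and 23.6% rose in rny1Δ atg2Δ cells, and 22.2% fell and 21.8% rose in rny1Δ cells. The segregation genes thus fell at close to the share of all genes, but rose at a smaller share, and their medians were below those of all genes. In WT RNA at 3 h the 40 replication genes with 100 counts had a median of -0.06 relative to the median gene and the 55 segregation genes one of 0.33. The segregation list holds 10 members, selected for a 3 h value above the median gene, so its WT median is no independent evidence. A list of 17 daughter cell separation genes, which holds SCW11 and PCL9, had 6 higher and 2 lower in rny1Δ atg2Δ cells and 7 higher and 2 lower in rny1Δ cells.

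Of the 4 sulfur members only MET2 rose, and of the 4 surface and sugar members only MNN4, each in both strains. MET2 had 62.1 and 57.9 CPM in rapamycin-treated rny1Δ atg2Δ cells, against 11.9 CPM in growing ones. In rny1Δ cells it had 45.7 and 42.4 CPM after rapamycin, against 14.2 CPM in growing cells. It rose in both strains, by 2.33 ± 0.14 (adjusted p = 4.1e-11) and 1.64 ± 0.15 (adjusted p = 9.7e-09) on the log2 scale. MNN4 had 171 and 134 CPM after rapamycin in rny1Δ atg2Δ cells, against 25.9 CPM in growing ones, and 89.6 and 84.3 CPM in treated rny1Δ cells, against 27.4 CPM. It rose by 2.56 ± 0.17 and 1.67 ± 0.17. The other sulfur members did not pass the test: MET5 (sulfite reductase) had 0.04 ± 0.12 and -0.17 ± 0.12, MET3 had 0.09 ± 0.16 and -0.45 ± 0.17, and SAM2 had -0.58 ± 0.14 and -0.76 ± 0.14 in rny1Δ atg2Δ and rny1Δ cells. Of a list of 37 genes drawn up for sulfur and methionine, 14 rose and 7 fell in rny1Δ atg2Δ cells and 12 rose and 7 fell in rny1Δ cells. These counts include genes outside that pathway. Of them CYC7 (4.93 and 4.49) and GTT1 (1.35 and 1.25) rose, and ATR1 (-1.47 and -1.25) fell, in rny1Δ atg2Δ and rny1Δ cells. HXT4 reached 0.98 ± 0.15 and 0.80 ± 0.14, just under the limit, with 129 and 132 CPM in treated rny1Δ atg2Δ cells, against 66.4 CPM in growing ones. Of 41 hexose and sugar use genes tested, 22 rose and 4 fell in rny1Δ atg2Δ cells and 21 rose and 4 fell in rny1Δ cells. Beside both lists, 23.6% of all genes rose and 23.6% fell in rny1Δ atg2Δ cells, and 21.8% rose and 22.2% fell in rny1Δ cells.

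**Figure D4:**
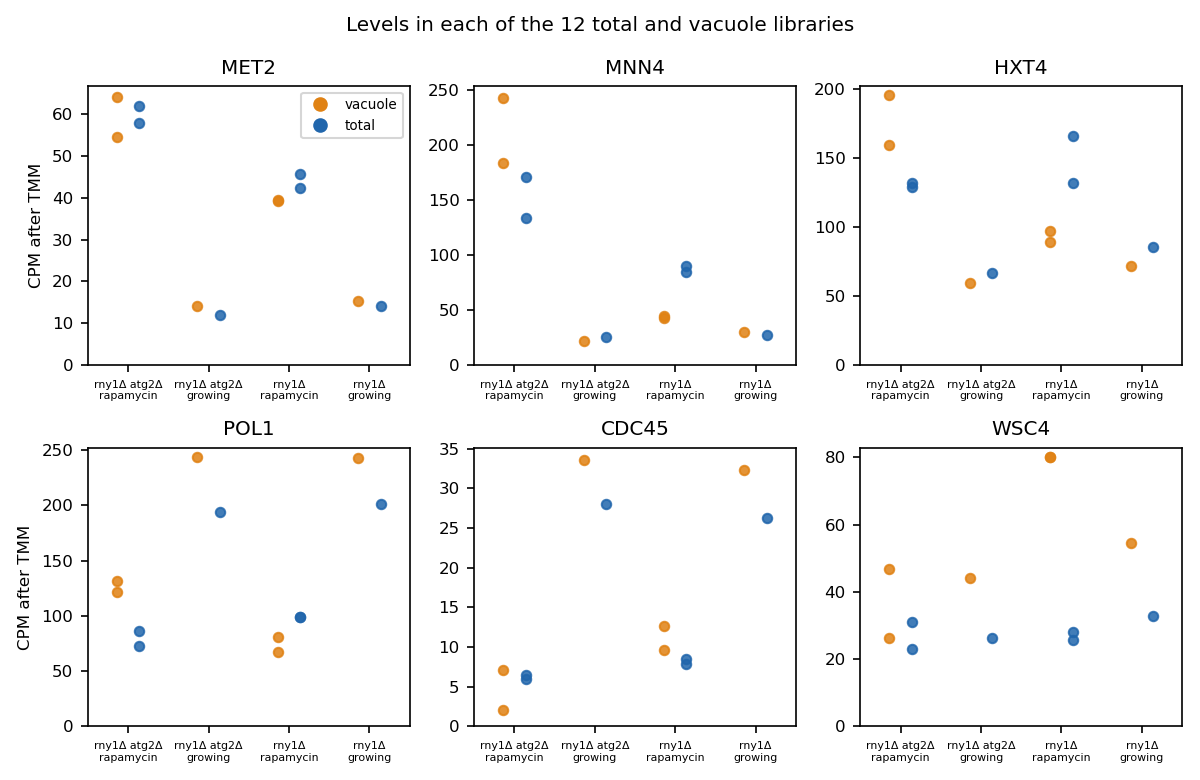
CPM after TMM in each of the 12 vacuole (orange) and total (blue) libraries for 6 members, by strain label and treatment. MET2 and MNN4 are higher after rapamycin in both fractions, POL1 and CDC45 are lower, and WSC4 in rny1Δ cells is higher in vacuoles (80.1 CPM in both treated libraries) than in total RNA.

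Among the remaining members, TYE7, an activator of glycolytic genes, fell in both strains (-1.13 ± 0.15 and -1.16 ± 0.16). SCW11 had -1.07 ± 0.13 and -1.002 ± 0.13, and its call in rny1Δ cells was lost in 3 of 15 settings, at -0.98 with DESeq2's size factors. Also lower in both strains was AEP2, needed to express a mitochondrial ATP synthase subunit (-1.25 ± 0.17 and -1.12 ± 0.18). The other splicing and transcription members, IFH1 (a coactivator of ribosomal protein genes), ISW2 (chromatin remodelling), SNU66, PRP9 (spliceosome) and RTP1 (RNA polymerase II import), lay between -0.98 and 0.30 and did not pass. SPS4, the leading member in WT, had 7.66 and 6.84 CPM in treated rny1Δ atg2Δ cells and 7.42 CPM in growing ones, and 7.31 and 8.17 CPM in treated and 5.59 CPM in growing rny1Δ cells. Treated and growing libraries overlapped in rny1Δ atg2Δ cells, and the log2 changes were -0.02 ± 0.21 and 0.47 ± 0.24. RED1, an axis protein of meiotic chromosomes, rose in rny1Δ atg2Δ cells (1.01 ± 0.18) and had 0.80 ± 0.19 in rny1Δ cells. Without treated rny1Δ atg2Δ replicate 1 it had 0.84, and without treated rny1Δ replicate 2, 0.998, and neither was called. The nuclear-encoded mitochondrial member MIR1, the phosphate carrier, had 0.74 ± 0.12 and 0.69 ± 0.12, with 245 and 243 CPM in treated and 146 CPM in growing rny1Δ atg2Δ cells. Of the unplaced members, MDM1, YDR444W and YLL032C lay between -0.11 and 0.25 in both strains. YOR263C, which has no entry in the RefSeq table and had 0 footprints in each WT library, rose in both (1.21 ± 0.15 and 1.38 ± 0.15). DSE3, the next gene by systematic name (YOR264W), changed by 1.15 and 1.41. Whether reads of DSE3 were counted for YOR263C was not tested. AI3 rose by 1.52 ± 0.29 and 2.63 ± 0.32, with 238 and 268 CPM after rapamycin and 88.3 CPM in growing rny1Δ atg2Δ cells. In rny1Δ cells it had 234 and 519 CPM after rapamycin and 60.7 CPM in growing cells. BI3 had 0.76 ± 0.34 in rny1Δ atg2Δ cells, without a call, and rose in rny1Δ cells (1.55 ± 0.37), where leaving out treated replicate 2 gave 0.79 and no call. The difference between these changes was not tested. All mitochondrially encoded genes together moved with these 2 members. They held 3.84% and 4.14% of total RNA counts in treated rny1Δ atg2Δ cells and 0.888% in growing ones, and 3.95% and 5.88% in treated rny1Δ cells and 0.784% in growing ones. Their part in the result was not tested.

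The total RNA of the mutant strains was then compared with each other after rapamycin. No member was called between rny1Δ atg2Δ and rny1Δ cells, where 0.348% and 0.158% of all genes were called higher and lower. An unadjusted p under 0.05 was reached by 11 of the members measured and by 1523 of all 6328 genes tested. DESeq2's test called no member either, while leaving out rny1Δ total replicate 1 gave 1 higher and 1 lower. The largest difference past an adjusted p of 0.01 was that of MNN4, at 0.81 ± 0.12 (adjusted p = 0.00056). HOF1 followed at 0.59 ± 0.12 (adjusted p = 0.0067), with 33.7 and 30.4 CPM in rny1Δ atg2Δ cells and 23.1 and 19.6 CPM in rny1Δ cells. The median over members was -0.01, as over all genes. MET2, UPS2 and RTP1 had differences of 0.45 ± 0.10, 0.76 ± 0.18 and 0.32 ± 0.10, under the limit of size.

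Vacuoles of rny1Δ cells, which by label lack the vacuolar ribonuclease, were compared next. Autophagy carries cytoplasm, mRNA included, into this organelle. In vacuole RNA of treated against growing rny1Δ cells, 3 members rose and 9 fell, where 20.8% and 17.4% of all genes were called higher and lower, with a median of -0.41 for members and 0.12 for all genes. MET2 rose (1.36 ± 0.14), with 39.4 and 39.1 CPM in treated and 15.2 CPM in growing vacuoles. AI3 also rose, with 202 and 304 counts in treated vacuoles and 18 in growing ones, as did BI3, with 42 and 52 counts in treated vacuoles and 5 in growing ones. POL1 fell (-1.71 ± 0.13), with 80.9 and 67.6 CPM in treated and 242 CPM in growing vacuoles, and so did CDC45, CBF2, TOP2, TYE7, MCD1, BFA1, SCW11 and IFH1, between -1.55 and -1.08. SCW11 lost its call without treated vacuole replicate 1 (-0.97) and BFA1 without replicate 2 (-0.90). All but TOP2 and IFH1 of these 9, and all 3 that rose, were also called in the same direction in total RNA of one or both strains.

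The vacuole/total ratio after rapamycin sets the 2 fractions of a strain side by side. CPM and these ratios give shares of the RNA of each fraction and not amounts. The study hardly detected mRNA in vacuoles of atg2Δ cells. In rny1Δ atg2Δ cells 1 member was called higher in vacuoles and 3 lower, where 1.66% and 1.53% of all genes were called. In rny1Δ cells 3 members were called higher in vacuoles and 4 lower, where 10.5% and 7.73% of all genes were called. The member medians were 0.03 and -0.16, beside -0.03 and 0.02 over all genes. WSC4, a membrane protein of the Wsc stress sensor family (chromosome VIII, 48763 to 50580), had the highest ratio in rny1Δ cells, with 80.1 and 80.1 CPM in vacuoles and 28.2 and 25.7 CPM in total RNA. Its log2 ratio was 1.57 ± 0.14 (adjusted p = 2.8e-08) there and 0.70 ± 0.15 in rny1Δ atg2Δ cells. In growing rny1Δ cells WSC4 was already higher in vacuoles, with 54.5 CPM against 32.8 CPM in total RNA. MIF2 (1.12 ± 0.21) and MIC19, of the complex that shapes mitochondrial cristae (1.06 ± 0.17), were also called in rny1Δ cells. MIF2 had 9.48 and 9.94 CPM in vacuoles and 4.84 and 4.03 CPM in total RNA, and its fractions did not overlap. MIC19 had 20.4 and 17.9 CPM in vacuoles and 9.49 and 8.83 CPM in total RNA, with a ratio of 0.97 and no call without vacuole replicate 1. Neither was called in rny1Δ atg2Δ cells (0.55 ± 0.21 and 0.23 ± 0.21), and the difference between strains in the ratio alone was not tested. Without total replicate 1 of rny1Δ cells, 5 members were called higher in that strain.

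**Figure D5:**
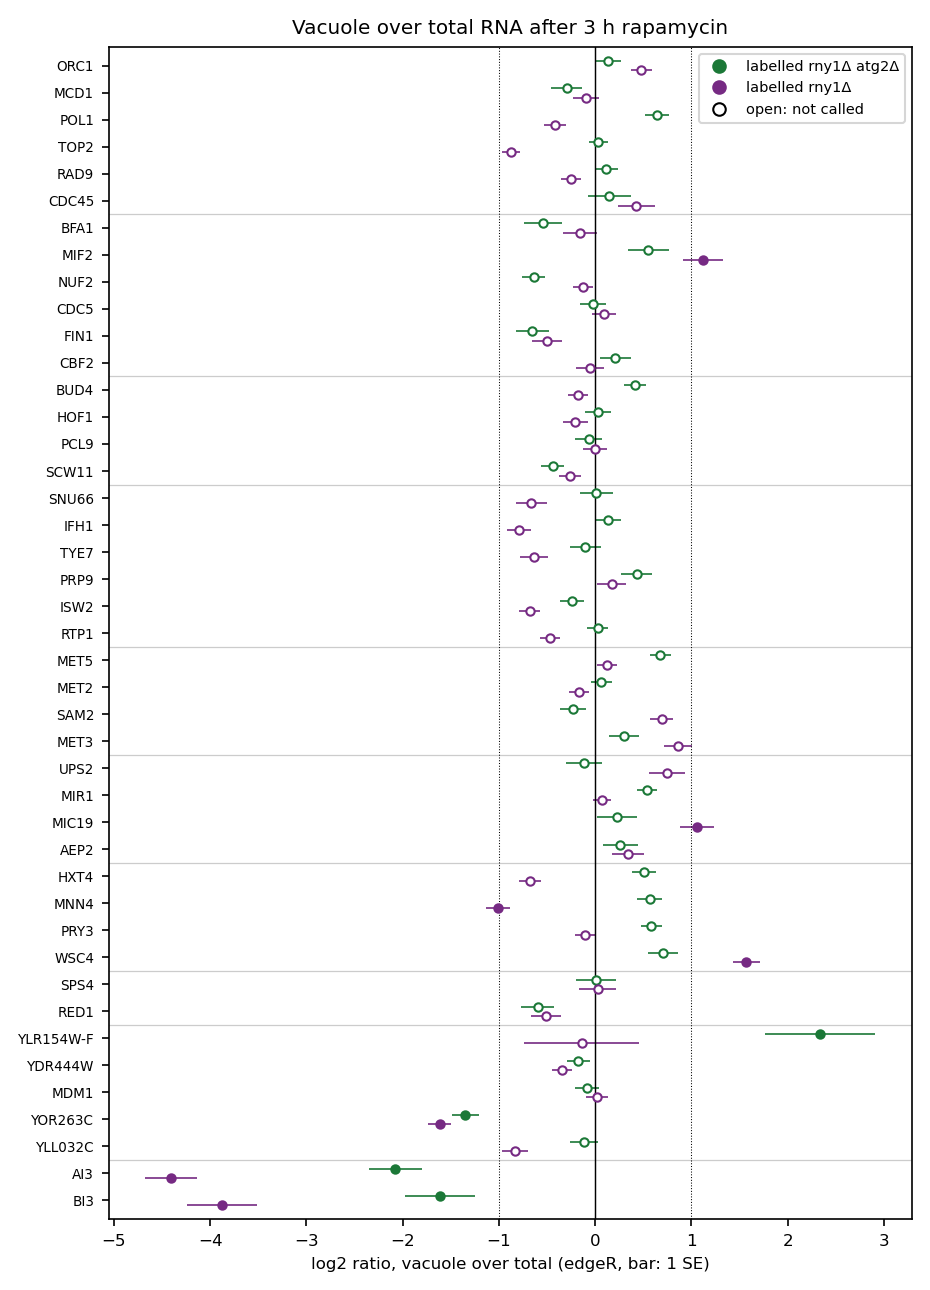
Log2 ratio of vacuole over total RNA after 3 h of rapamycin for 43 members, with 1 SE, in cells labelled rny1Δ atg2Δ (green, upper point) and rny1Δ (purple, lower point). Groups are parted by grey lines in the same order as in the plot of total RNA, and filled points passed the test. WSC4, MIF2 and MIC19 lie above 1 in rny1Δ cells, and AI3 and BI3 lie near -4 in rny1Δ cells and nearer to -2 in rny1Δ atg2Δ cells.

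The lowest ratios belonged to the mitochondrially encoded members and to YOR263C. AI3 had 57.2 and 76.9 CPM in vacuoles and 238 and 268 CPM in total RNA of rny1Δ atg2Δ cells, with a log2 ratio of -2.08 ± 0.28. In rny1Δ cells it had 15.6 and 19.8 CPM in vacuoles and 234 and 519 CPM in total RNA, with a log2 ratio of -4.41 ± 0.27. BI3 had -1.61 ± 0.36 and -3.88 ± 0.36, and without the deeper rny1Δ atg2Δ vacuole replicate 1 its ratio in that strain was 0.09, while that of AI3 was -1.72 (adjusted p = 0.071). Of 26 mitochondrially encoded genes tested, 21 were called lower in vacuoles of rny1Δ atg2Δ cells and 23 in vacuoles of rny1Δ cells, and 0 higher in either. YOR263C had -1.35 ± 0.14 and -1.62 ± 0.12. MNN4 was called lower in rny1Δ cells only (-1.01 ± 0.13), at the limit of size, and lost the call without rny1Δ total replicate 1 (-0.96) or vacuole replicate 1 (-0.98). YLR154W-F, called higher in rny1Δ atg2Δ cells, had 45 and 0 counts in the 2 vacuole libraries and 11 and 2 in total RNA, and its ratio changed sign, to -5.56, without vacuole replicate 1 and lost its call, at 1.82, without total replicate 2. The members of the splicing and transcription group had a median ratio of -0.65 in rny1Δ cells, with IFH1 at -0.79 ± 0.13, and of 0.02 in rny1Δ atg2Δ cells, with none called.

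Vacuolar enrichment is the vacuole/total ratio after rapamycin minus that in growing cells of the same strain. In rny1Δ atg2Δ cells 3 members were enriched and 0 depleted, where 2.05% and 1.49% of all genes were called. In rny1Δ cells 1 member was enriched and 2 depleted, where 11.2% and 8.42% of all genes were called. The 3 calls in rny1Δ atg2Δ cells were AI3, BI3 and YLR154W-F, with 22, 6 and 8 counts in the growing vacuole library. None of the 3 was called without vacuole replicate 1, and only AI3 was without replicate 2. YLR154W-F also lost its call without rny1Δ atg2Δ total replicate 2 or rny1Δ total replicate 1. Leaving out either rny1Δ vacuole library gave 1 member depleted. In rny1Δ cells MET3 was enriched at 1.19 ± 0.24 (adjusted p = 0.00056). It had 29.8 and 29.9 CPM in treated vacuoles and 18.6 and 14.2 CPM in treated total RNA, against 17.99 and 22.6 CPM in growing cells. DESeq2's test did not call MET3 (log2 change 1.13, adjusted p = 0.024), and without rny1Δ total replicate 2 a further member was enriched, 2 in all. MNN4 was depleted at -1.14 ± 0.23, with 42.4 and 44.2 CPM in treated vacuoles and 89.6 and 84.3 CPM in treated total RNA, against 30.04 and 27.4 CPM in growing cells. YOR263C was depleted at -1.47 ± 0.21. WSC4, MIF2 and MIC19, with high ratios after rapamycin in rny1Δ cells, were not called as enriched there (0.84 ± 0.23, 0.85 ± 0.31 and 0.95 ± 0.29). The median enrichment of members was 0.16 in rny1Δ atg2Δ cells and -0.04 in rny1Δ cells, beside 0.01 and 0.05 over all genes.

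The difference in enrichment between the strains, which asks whether it changes with ATG2, called 3 members higher in rny1Δ atg2Δ cells and 0 lower, where 7.85% and 8.8% of all genes were called. DESeq2's size factors gave 7 higher, and a minimum of 10 counts in every library gave 1 higher. A replicate block, which pairs the fractions by replicate number, also changed these counts, as given with the other alternatives below. The values compare shares of RNA, and with mRNA hardly detected in vacuoles of atg2Δ cells they give no amount delivered. MNN4 differed by 1.92 ± 0.33 (adjusted p = 0.0005), with an enrichment of 0.79 ± 0.23 in rny1Δ atg2Δ and -1.14 ± 0.23 in rny1Δ cells. HXT4 differed by 1.08 ± 0.29 (adjusted p = 0.0085), with 0.67 ± 0.21 and -0.42 ± 0.20. HXT4 had 196 and 159.9 CPM in treated rny1Δ atg2Δ vacuoles and 89.6 and 97.1 CPM in treated rny1Δ vacuoles, whereas its total RNA overlapped between the strains. Its call was lost, at 0.87 to 1.095, when any 1 of 5 treated libraries was left out: either rny1Δ atg2Δ total library, rny1Δ atg2Δ vacuole replicate 1, or replicate 1 of rny1Δ total or vacuole. The third, YLR154W-F, rests on the low counts given above and reversed to -2.74 without rny1Δ atg2Δ vacuole replicate 1. Its call was also lost, at 4.64 to 5.34, without rny1Δ atg2Δ vacuole replicate 2 or total replicate 2 or without either rny1Δ total library. TOP2, POL1 and PRY3 came close, at 0.99 ± 0.23, 0.998 ± 0.27 and 0.93 ± 0.24, each with an adjusted p below 0.01 and a size just under 1. Without the shallow vacuole replicate 2 of rny1Δ atg2Δ cells 3 members were called higher, and without the deeper replicate 1 only 1 was. Without rny1Δ total replicate 1, 1 member was called lower.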

How the data were processed

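WT and mutant cells were assayed by RNA-Seq, WT cells also by ribosome profiling. The deposited counts per gene were used as the authors made them on sacCer3. For the mutants, reads were clipped with the FASTX toolkit, cleared of rRNA with Bowtie2 and aligned with TopHat2, and counted with HTSeq; whether strand was used is not given in the sources used here. For WT, reads were aligned with STAR, footprints of 26 to 30 nt were counted once per molecular identifier, and 15 nt at each end of a coding sequence were left out. The submitters' notes name CASAVA 1.8, Bowtie2 2.1.0, TopHat2 2.0.9, HTSeq 0.6.1 and STAR 2.7.0a. A further deposited column gives the counted coding length in codons. HTSeq's summary rows for unassigned reads were left out of totals and tests. Symbols came from the RefSeq table of assembly R64, in which 42 of the 44 members matched.

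Members and gene lists were chosen with earlier results of these data known. Members follow the limits stated with them, and all of them may be named since 40 carry a symbol. Tests used edgeR 4.0.16 (R 4.3.3): quasi-likelihood fits with TMM, one of the 12 mutant libraries in 8 groups and one of the 5 footprint libraries, over genes with 10 or more counts summed over the fit. A gene was called at a log2 change of 1 or more in size and a Benjamini-Hochberg adjusted p below 0.01. Errors are standard errors, the log2 change over the square root of F. Replicates are separate libraries by label, and where no separate culture is stated, p-values measure only the spread between libraries. The fits were tested on simulated data. Alternatives included DESeq2 1.42.0, other filters, a replicate block and leaving out each replicate. Tables and plots used Python 3.11.15, pandas 2.3.3 and matplotlib 3.10.9.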

Additional observations from a re-analysis of the deposited data

Results flagged for a closer look

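For 3 members the vacuolar enrichment differed between the strains by a test of the difference itself (edgeR's quasi-likelihood test, Benjamini-Hochberg). Enrichment compares shares of RNA and not amounts. MNN4, needed for mannosylphosphate on glycans, was 1.92 ± 0.33 higher in rny1Δ atg2Δ than in rny1Δ cells (log2 ± SE, adjusted p = 0.0005) and passed under every alternative run, with 1.63 to 2.104 when a replicate was left out. HXT4, a hexose transporter, was 1.08 ± 0.29 higher (adjusted p = 0.0085), a call lost in 7 of 15 settings. YLR154W-F was 5.16 ± 1.36 higher (adjusted p = 0.0083) on 0 to 45 counts per library. It has no entry in the RefSeq table and had 0 footprints in each WT library. Of 12 settings with an adjusted p, 4 lost the call and 1 reversed the value, to -2.74.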

How the results depend on the processing

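Library depth, the single growing mutant libraries and the 1 residual degree of freedom of the footprint fit limit what could be called. Counts of members called kept within 1.5 times of the reported ones in 279 recomputed values and moved further in 41. With at least 10 counts in every library, 28 members were tested, and lower calls became 6 for rny1Δ atg2Δ total RNA, 4 for rny1Δ total RNA, 5 for rny1Δ vacuole RNA and 2 for the rny1Δ vacuole/total ratio. That filter also gave 0 higher for the rny1Δ atg2Δ ratio, 1 higher and 1 lower for rny1Δ atg2Δ enrichment, 2 higher and 1 lower for rny1Δ enrichment and 1 higher for the strain difference in enrichment. With protein-coding genes only, chosen after seeing the data, the ratio gave 0 higher in rny1Δ atg2Δ and 2 lower in rny1Δ, and rny1Δ enrichment 1 lower. DESeq2's test gave 0 higher for the rny1Δ atg2Δ ratio, 1 higher and 1 lower for rny1Δ atg2Δ enrichment and 0 higher for rny1Δ enrichment, with no adjusted p for YLR154W-F in the rny1Δ atg2Δ ratio, its enrichment and the strain difference or for BI3 in that enrichment. DESeq2's size factors gave 7 higher for the strain difference, and a fit of only the libraries compared gave 1 lower for rny1Δ atg2Δ enrichment.

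The replicate block gave 6 higher and 1 lower for the strain difference and 2 higher for rny1Δ enrichment, and POL1 in rny1Δ total RNA then had -0.96 and BFA1 in rny1Δ atg2Δ total RNA -0.98. Replicate differences of total and vacuole libraries correlated at 0.25 over genes in rny1Δ atg2Δ and 0.23 in rny1Δ cells. The study floated vacuoles from cell lysates and describes 2 independent rapamycin experiments for the RNA-Seq samples of both fractions. No label says that equal replicate numbers share a culture, and there are only 2 pairs per strain, so the main fit left the samples unpaired. If they are pairs, the ratio and enrichment calls of that fit ignore the pairing.

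Leaving out 1 replicate gave 0 to 1 higher and 0 to 1 lower between the strains in total RNA. It gave 0 to 1 higher and 1 to 3 lower for the rny1Δ atg2Δ ratio, and 2 to 5 higher and 3 to 4 lower for the rny1Δ ratio. Enrichment gave 0 to 3 higher and 0 to 1 lower in rny1Δ atg2Δ cells, 1 to 2 higher and 2 to 3 lower in rny1Δ cells, and 1 to 3 higher and 0 to 1 lower for the difference. Footprint changes of 1 or more at 3 h were seen in 1 to 7 members. There were 4 values that reversed, all without rny1Δ atg2Δ vacuole replicate 1, which leaves the shallow library: the ratio of BI3 (0.09, range over replicates left out -1.82 to 0.09) and the ratio, enrichment and strain difference of YLR154W-F (-5.56 to 3.70, -3.87 to 5.39 and -2.74 to 6.52). The member list itself held 13 genes after TMM, 12 relative to the median of all genes (chosen after seeing the data), 5 with a 1 h ceiling of 0, 70 with one of 0.5, and 39 to 42 with 1 growing library. The cause of these moves was not tested. The promoter alternative was not run.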

Other observations

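Vacuole RNA of rny1Δ atg2Δ cells was not tested on its own against growing vacuoles. MNN4 had 243 and 184 CPM in the 2 treated rny1Δ atg2Δ vacuole libraries and 22.2 CPM in the growing one, against 42.4 and 44.2 CPM in treated and 30.04 CPM in growing rny1Δ vacuoles. These CPM are shares of each library and not amounts. In the strain difference of enrichment all 6 transcription and splicing members were above 0 (median 0.57), with IFH1 highest at 1.02. None was called, where 7.85% of all genes were called higher. The role groups were drawn up after the values were known, and their difference from all genes was not tested. Of the 16 cell division members measured, 7 were above 0 and 9 below (median -0.06).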
